A study of Mus musculus with 31 samples.

Results

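The 3 RUNX genes of the mouse, Runx1, Runx2 and Runx3, and Cbfb, which encodes their shared cofactor CBFβ, were described by the accessible chromatin at their loci. These 4 genes were taken from the 21938 protein-coding genes of the GENCODE M21 annotation. Accessible regions were the peaks of an ATAC-seq library, in which Tn5 transposase inserts sequencing adapters into open DNA. Peaks were counted within 1 kb of any transcription start site (TSS) of a member, in its gene body and up to 100 kb outside it, which gave 82 of the 63456 peaks in the list.

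The library came from parental NIH-3T3 cells, an immortalized line of mouse fibroblasts, without an overexpressed transcription factor (TF). It was made once from 1 culture, so values have no replicates and samples could not be tested against each other. In the remaining 30 samples of the series, cells carried doxycycline-inducible TFs (13 in all) or only rtTA3G, the activator of the inducible promoter. Those samples were not analysed here. The methods describe doxycycline treatment of NIH-3T3 cells for ATAC-seq, and it is not stated whether the parental line received it. Of the fibroblast markers examined, 10 of 10 had a TSS peak, among them Fn1 (fibronectin) at a fold enrichment of 10.5 and Thy1 at 3.41. A TSS peak was also present at 1 of 5 blood markers (Spi1), 1 of 4 epithelial markers (Krt8), 3 of 3 endothelial markers, 0 of 2 muscle markers and 0 of 3 bone markers. The endothelial genes with a peak were Cdh5 (12.8-fold), Pecam1 (8.40-fold) and Tek (3.58-fold), so the marker set did not separate fibroblasts from endothelial cells at the level of TSS peaks.

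RUNX proteins are TFs that bind DNA through the Runt domain. CBFβ does not contact DNA itself and strengthens the binding of its RUNX partner. RUNX1 is required for the emergence of blood stem cells, RUNX2 for osteoblast differentiation and bone formation, and RUNX3 acts in cytotoxic T cells and sensory neurons. Each mammalian RUNX gene is transcribed from a distal promoter, P1, and a proximal promoter, P2, which give proteins with different first residues.

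In the mm10 coordinates of the annotation, Runx1 (ENSMUSG00000022952.17) lies at chr16:92601466-92826149 and Runx2 (ENSMUSG00000039153.16) at chr17:44495987-44814797, both on the minus strand. Runx3 (ENSMUSG00000070691.10) lies at chr4:135120652-135177990 and Cbfb (ENSMUSG00000031885.14) at chr8:105170674-105217989, both on the plus strand.

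The DNA just before the starts is printed first, to show the base composition of the promoters. In each of the following lines, for 6 of the 7 promoters, the 150 bases upstream of the first coding transcript start are given 5′ to 3′ on the strand of the gene (GRCm38/mm10), with CpG dinucleotides in capitals.
Runx1 P1, chr16:92826150-92826299, minus strand: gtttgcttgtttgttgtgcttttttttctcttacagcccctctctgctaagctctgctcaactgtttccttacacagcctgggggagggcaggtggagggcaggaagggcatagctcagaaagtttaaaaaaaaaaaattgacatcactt
Runx1 P2, chr16:92697329-92697478, minus strand: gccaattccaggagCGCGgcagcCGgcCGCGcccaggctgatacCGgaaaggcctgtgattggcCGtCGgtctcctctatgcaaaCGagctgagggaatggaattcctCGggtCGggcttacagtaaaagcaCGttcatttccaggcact
Runx2 P1, chr17:44814798-44814947, minus strand: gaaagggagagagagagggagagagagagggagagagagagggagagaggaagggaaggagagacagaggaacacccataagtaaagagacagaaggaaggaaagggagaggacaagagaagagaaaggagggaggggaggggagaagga
Runx3 P1, chr4:135120502-135120651, plus strand: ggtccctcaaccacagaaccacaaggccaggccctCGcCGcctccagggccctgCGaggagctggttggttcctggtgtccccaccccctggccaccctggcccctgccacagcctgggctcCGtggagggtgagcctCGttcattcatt
Runx3 P2, chr4:135152346-135152495, plus strand: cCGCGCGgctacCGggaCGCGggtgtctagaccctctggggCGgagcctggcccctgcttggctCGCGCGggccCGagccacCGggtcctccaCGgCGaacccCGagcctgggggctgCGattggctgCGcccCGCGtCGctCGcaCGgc
Cbfb promoter, chr8:105170524-105170673, plus strand: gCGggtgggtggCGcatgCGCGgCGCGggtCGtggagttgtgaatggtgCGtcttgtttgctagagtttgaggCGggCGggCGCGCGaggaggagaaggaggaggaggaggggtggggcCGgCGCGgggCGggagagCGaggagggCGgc

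The P1 stretches of Runx1 and Runx2 held 0 CpG dinucleotides, whereas that of Runx3 held 5. The P2 stretches of Runx1 and Runx3 held 12 and 22 CpG, and the Cbfb stretch held 19. The count at Runx2 P2 is left out, so these counts do not compare P1 with P2. The median over all 30935 coding promoters was 4. In the 500 bp around each first start, the ratio of observed to expected CpG was 0.25, 0.0833 and 0.348 at the P1 promoters of Runx1, Runx2 and Runx3, and 0.959, 0.807 and 0.99 at their P2 promoters. With a ratio of 0.6 as the limit, the 3 P1 promoters were CpG-poor, and the 3 P2 promoters and the Cbfb promoter (0.955) were CpG-rich.

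A peak lay within 1 kb of a TSS at 3 of the 4 members, Runx1, Runx2 and Cbfb, and at none of the starts of Runx3. Across all protein-coding genes 53.7% had such a peak. Counted by promoter, 4 of the 6 RUNX promoters and the single Cbfb promoter had a peak. At P1, 2 of 3 promoters had one, beside 15.9% of the 19143 CpG-poor coding promoters. At P2 and Cbfb, 3 of 4 promoters had one, beside 77.8% of the 11792 CpG-rich coding promoters. The numbers of members are too small to set these shares apart from the background.

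The P1 promoter of Runx1, which starts the transcripts of the longer protein form, lay under a peak at chr16:92825906-92826223. This peak was 318 bp wide, with 25 fragments over its summit where 5.89 were expected. Its fold enrichment, the ratio of the summit pileup to the local expectation with 1 added to each, was 3.78 (95% Poisson interval 2.49 to 5.5), and its −log10 q was 6.72. Poisson and binomial intervals here and in the following cover counting error only, with the expectation taken as fixed. The fold enrichment was higher than that of only 12.4% of the 16264 TSS peaks.

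The P2 promoter of Runx1, 129 kb further along the gene, had a peak at chr16:92696654-92698360 with 54 fragments at its summit. It was 1707 bp wide, its fold enrichment was 8.68 (6.56 to 11.3) and its −log10 q was 32.4. This placed it at the percentile 55.2 of TSS peaks, whose median was 8.03. The intervals of P1 and P2 did not overlap in fold enrichment or in pileup, and both values were higher at P2. Each interval covers the counting error at the highest point of its peak only. The peaks also differed in width, with 1707 bp at P2 and 318 bp at P1. Whether P2 was the more accessible promoter of Runx1 could not be tested, because the library has no replicates.

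Runx2 was accessible at both promoters as well. The peak at P1, chr17:44814679-44815080, was 402 bp wide, with 18 fragments where 2.81 were expected, a fold enrichment of 4.99 (3.06 to 7.73) and a −log10 q of 7.37. Its summit lay 229 bp before the first start. P2 had 3 peaks, of which the highest, chr17:44735790-44736576, had 53 fragments, a fold enrichment of 6.09 (4.59 to 7.93) and a −log10 q of 23.5. The other P2 peaks, chr17:44735301-44735624 and chr17:44734442-44734905, had fold enrichments of 2.85 and 3.11. The intervals of the fold enrichment overlapped between P1 and P2, whereas those of the summit pileup, 10.7 to 28.4 fragments at P1 and 39.7 to 69.3 at P2, did not. The local expectation also differed, at 2.81 and 7.87 fragments. The antisense transcript Runx2os1 starts at P2 of Runx2, and ATAC-seq has no strand, so the accessibility of their starts cannot be told apart.

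Runx3 had no peak at P1 or at P2. The nearest peak lay 24655 bp from P1 and 6548 bp from P2. Of all coding promoters without a peak, 57.2% were nearer to one than Runx3 P1 and 26.5% were nearer than Runx3 P2. Both starts fell in a peak-free stretch of 63.0 kb, chr4:135095998-135159043, and 88.8% of the gaps between neighbouring peaks in the genome were shorter. The stretch was picked because it holds these starts, and the share does not allow for that choice. Runx3 P2, with a GC content of 79.6%, had the highest GC content and the highest CpG ratio of the 7 promoters and no peak. The absence of a peak says that the peak list holds no region there, not that the promoter was closed.

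Cbfb, whose product is needed by all RUNX proteins, had the highest promoter peak of the 4 genes. It covered chr8:105170139-105171622, 1484 bp, with 82 fragments where 6.87 were expected. Its fold enrichment was 10.5 (8.41 to 13.1), its −log10 q was 54.6, and 69.7% of TSS peaks were lower. The peak also lay within 1 kb of a start of the gene Gm22063, and the accessibility of these starts cannot be told apart. In descending order of fold enrichment the promoters were Cbfb, Runx1 P2, Runx2 P2, Runx2 P1 and Runx1 P1. The counting intervals of the fold enrichment overlapped for every adjacent pair in this order, whereas that of Cbfb did not overlap those of Runx2 P2, Runx2 P1 and Runx1 P1.

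**Figure D1:**
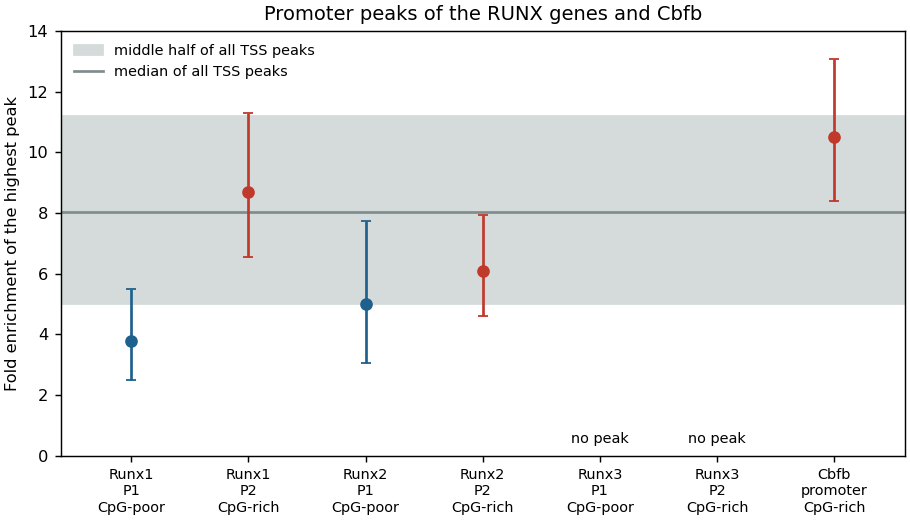
Fold enrichment of the highest peak within 1 kb of each promoter of Runx1, Runx2, Runx3 and Cbfb in the parental NIH-3T3 library. Points are peaks (red at CpG-rich and blue at CpG-poor promoters), bars are 95% Poisson intervals for counting error, and the grey band runs from 5.0 to 11.2, the quartiles of all TSS peaks, around their median of 8.03. Cbfb at 10.5 and Runx1 P2 at 8.68 lay above that median, and both Runx3 promoters had no peak.

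A CpG-poor first promoter followed by a CpG-rich second promoter is not particular to the RUNX genes, and 270 coding genes with 2 promoters had this arrangement. Of these, 51 (18.9%) had a peak at both promoters, as Runx1 and Runx2 did, and 72 (26.7%) had none at either, as Runx3 did. A peak was present only at the second promoter in 129 (47.8%) and only at the first in 18 (6.67%). No RUNX gene had either of these patterns. Where both promoters had a peak, the second was higher in 36 of 51 genes (70.6%), as in Runx1 and, within overlapping intervals, in Runx2.

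**Figure D2:**
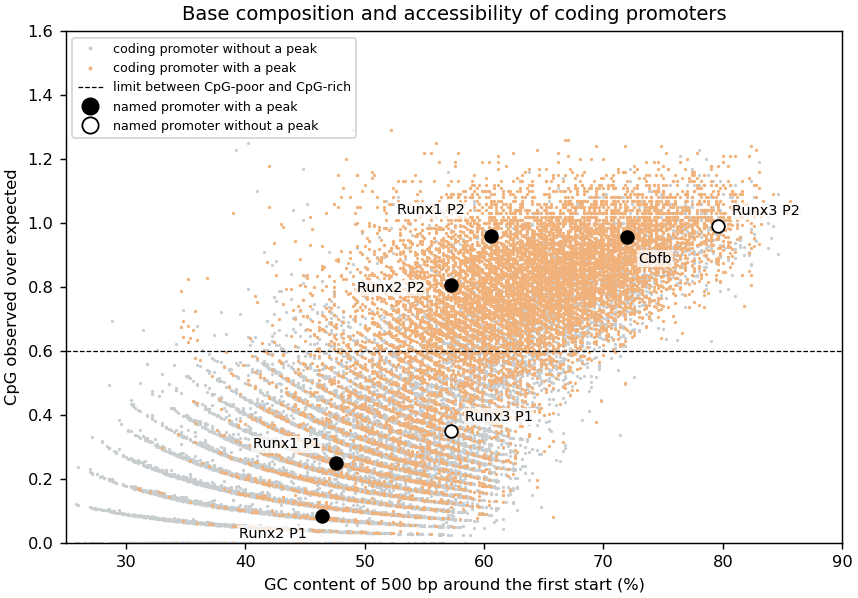
GC content (x axis, %) and the ratio of observed to expected CpG (y axis) in 500 bp around the first start of each coding promoter, with orange points for promoters with a peak and grey points for those without. Black and white circles are the promoters of the 4 genes with and without a peak. Runx1 P1 and Runx2 P1 lay among the CpG-poor promoters and had a peak, whereas Runx3 P2 lay among the CpG-rich promoters and had none.

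Away from start sites, 39 peaks lay in the bodies of the 4 genes, of which 23 were in Runx2, 13 in Runx1, 2 in Runx3 and 1 in Cbfb. Placed by their summits in the longest coding transcript of each gene, 31 were intronic and 0 exonic. The other 8 lay beyond the end of the longest coding transcript of Runx2. That part of the gene is covered only by a transcript annotated as a target of nonsense-mediated decay. Exons of that transcript were not compared with these 8 peaks. The median coding gene had 0 such peaks, and 67.3% of coding genes had none. Gene length differs among these genes, since Runx2 spans 319 kb, Runx1 225 kb, Runx3 57.3 kb and Cbfb 47.3 kb, and the median coding gene 17.4 kb. Per 100 kb of gene, Runx2 had 7.21 peaks, Runx1 5.79, Runx3 3.49 and Cbfb 2.11, which placed them at the percentiles 92.6, 89.3, 81.7 and 74.8 of coding genes. Any gene with such a peak ranks above the 67.3% with none, as Cbfb did with 1 peak, and these percentiles are not matched for gene length. Within the longest coding transcript of Runx2 alone there were 15 peaks, or 7.12 per 100 kb.

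**Figure D3:**
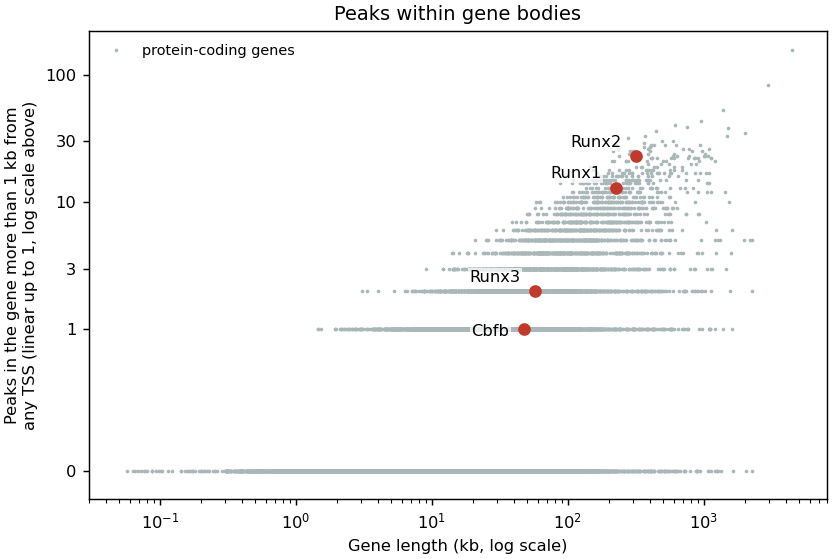
Number of gene body peaks away from all TSSs (y axis, linear up to 1 and logarithmic above) against gene length (x axis, kb, log scale), 1 grey point per protein-coding gene. The 4 genes are red, with 23 peaks in Runx2, 13 in Runx1, 2 in Runx3 and 1 in Cbfb, which is also their order by length.

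In Runx1, the intron between P1 and P2 held 6 of the 13 body peaks, with fold enrichments of 3.46 to 6.04. A pair of these peaks lay 1.59 and 2.41 kb after P1 (3.46-fold and 4.40-fold), and another pair lay 86.84 and 87.67 kb after it (3.94-fold and 4.20-fold). The remaining 2 followed 116 kb after P1, at 6.04-fold, and 127 kb after P1, at 4.64-fold and just before P2. Between the first pair and the second lay a stretch of 84.2 kb without a peak, chr16:92739365-92823553, and 92.2% of gaps between neighbouring peaks were shorter. This was the longest gap in the gene, and its rank beside single gaps does not allow for that choice. The intronic enhancer of Runx1 that is used in blood stem cells lies about 23 kb after P1, and the nearest peaks to that position were 20.4 kb before it and 63.8 kb after it. This position was looked up after the peaks had been seen.

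The other 7 body peaks of Runx1 lay after P2 and reached higher values than those between the promoters. The highest was chr16:92609325-92610036 in intron 7, 217 kb after P1, with 95 fragments, a fold enrichment of 13.0 (10.5 to 15.8) and a −log10 q of 71.6. It was followed by chr16:92620719-92621540 in intron 6 (88 fragments, 11.2-fold) and chr16:92654517-92654971 in intron 5 (58 fragments, 10.0-fold). These 3 intronic peaks had higher fold enrichments than the P2 promoter of the same gene, but the interval of each overlapped that of P2, 6.56 to 11.3. The pileup interval of the highest, 76.9 to 116 fragments, lay above that of P2, 40.6 to 70.5. The remaining 4 ranged from 2.80-fold to 7.27-fold.

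In Runx2, 5 body peaks lay between P1 and P2, 78.1 kb apart, and 18 lay after P2. Between the promoters the values ran from 2.89-fold, 22.29 kb after P1, to 9.27-fold, 47.25 kb after P1. The highest peak of the gene was chr17:44500174-44500871, 314 kb after P1 and near the 3′ end of the annotated gene. It had 195 fragments at its summit, a fold enrichment of 15.7 (13.6 to 18.1) and a −log10 q of 158, and 98.2% of peaks away from start sites were lower. The next was chr17:44587983-44588524, 227 kb after P1, with 84 fragments and a fold enrichment of 14.8 (11.8 to 18.2). Both lay beyond the end of the longest coding transcript, and both exceeded the peaks at P1 and P2 of Runx2 without overlap of the intervals. Within the coding transcript the highest were chr17:44717912-44718925 in intron 4 (79 fragments, 11.2-fold) and, at 9.27-fold each, chr17:44767350-44767903 in intron 2 (51 fragments) and chr17:44654431-44654798 in intron 6 (47 fragments).

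Inside Runx2 there were also 2 peaks at starts of other genes, which were kept apart from these counts. The first, chr17:44776725-44777739, lay at the start of Supt3, a gene of a transcription coactivator complex that begins within Runx2 on the opposite strand, with 88 fragments and a fold enrichment of 12.0. The second, chr17:44709639-44710232, lay at the start of the antisense RNA Runx2os2, with 70 fragments and a fold enrichment of 11.2. Both were higher than either Runx2 promoter.

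The body of Runx3 held 2 weak peaks, in intron 3, 38.45 kb after P1 (3.41-fold), and in intron 5, 50.82 kb after P1 (3.35-fold). Each had 12 fragments at its summit, near the lowest pileup in the whole list, which was 10. At a q of 1e-05 or below neither was kept. Cbfb had the opposite pattern, with a single body peak that was the highest by fold enrichment of all 82. It covered chr8:105186526-105187113 in intron 3, 16.01 kb after the start, with 100 fragments, a fold enrichment of 16.0 (13.0 to 19.4) and a −log10 q of 84.9. This interval overlapped that of the strongest Runx2 peak, and it met that of the Cbfb promoter at its edge, 13.0 against 13.1.

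**Figure D4:**
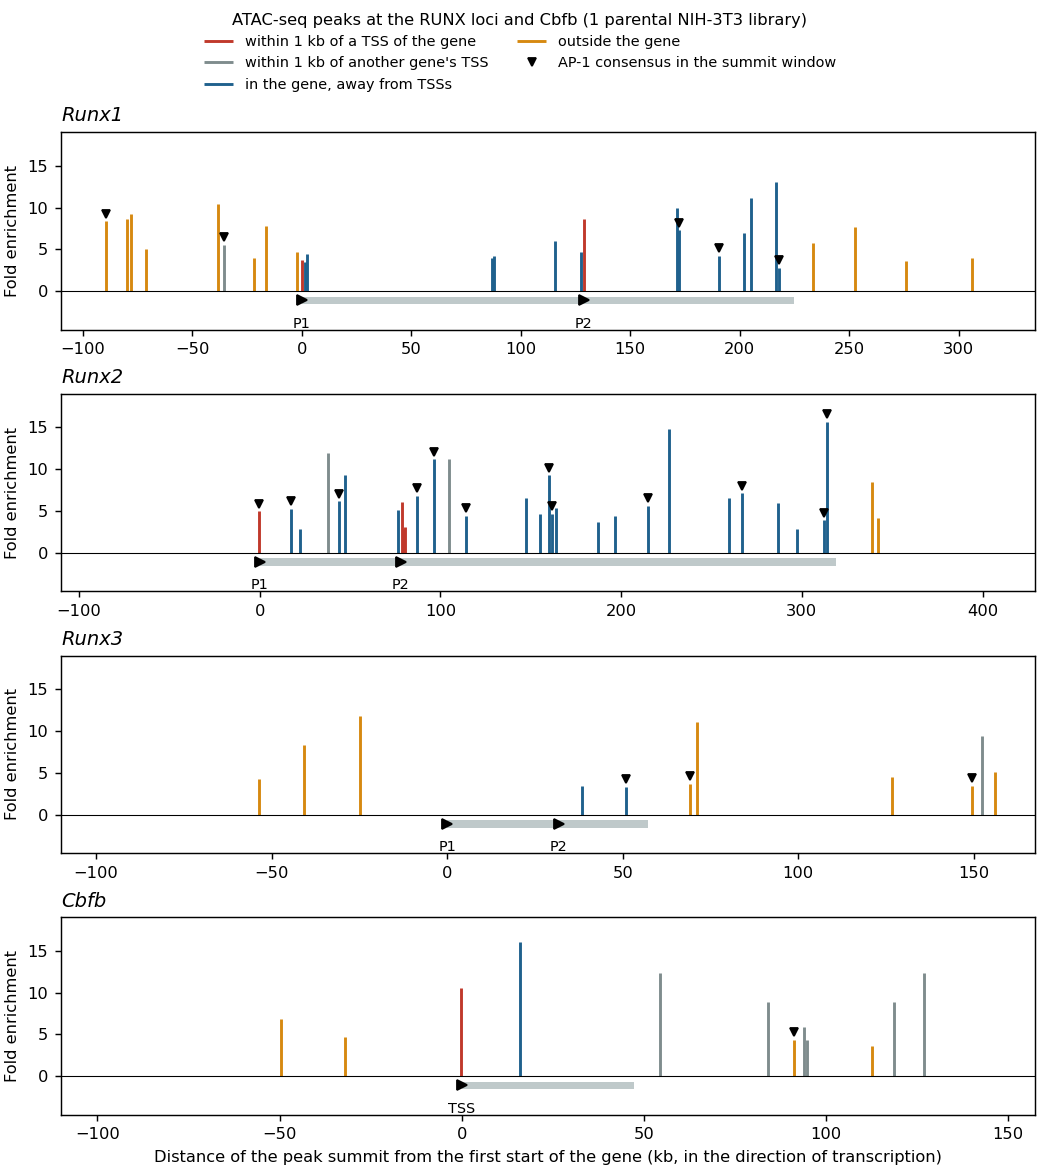
Peaks at the 4 loci in the parental NIH-3T3 library, with fold enrichment (y axis) against the distance of the summit from the first start of the gene in the direction of transcription (x axis, kb). Lines are peaks coloured by position, triangles mark an AP-1 consensus at the summit, grey bars are the genes and arrowheads the promoters. The peaks of Runx2 extended through the gene to the highest, 15.7-fold, near its 3′ end, whereas Runx3 had no peak from 24.78 kb before P1 to 38.45 kb after it.

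Within 100 kb of each gene, the gene included, there were 31 peaks at Runx2, 28 at Runx1, 12 at Cbfb and 11 at Runx3. The median coding gene had 10. Per 100 kb of this window the counts were 5.98, 6.59, 4.85 and 4.27, at the percentiles 72.5, 78.1, 60.2 and 53.3 of coding genes. The 82 peaks were made up of 7 at the members' own starts, 39 in their bodies, 10 at starts of other genes and 26 outside the gene and away from starts.

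Outside Runx1 there were 12 such peaks, the highest of them upstream of P1. These were chr16:92864203-92864597, 38.22 kb before P1 (48 fragments, 10.4-fold, interval 7.75 to 13.8), chr16:92903802-92904463 (43 fragments, 9.19-fold) and chr16:92905643-92905913 (40 fragments, 8.61-fold). All 3 had higher fold enrichments than the peak at P1 itself, 3.78. Runx2 had 2 peaks outside, chr17:44475928-44476402 (36 fragments, 8.50-fold) and chr17:44472718-44472838 (19 fragments, 4.17-fold), which both lay beyond its 3′ end.

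Outside Runx3 the peaks were higher than inside it. Of 8 peaks, the highest were chr4:135095621-135095997, 24.78 kb before P1 (44 fragments, 11.8-fold, interval 8.66 to 15.8), chr4:135191350-135192054, beyond the 3′ end (44 fragments, 11.1-fold, interval 8.12 to 14.8), and chr4:135079821-135080125 (32 fragments, 8.27-fold). The lower bounds of the first 2 lay above the fold enrichment of both intronic peaks of Runx3. Which gene these peaks act on was not tested. Among the 4 outside Cbfb, the highest were chr8:105121077-105121313 (25 fragments, 6.83-fold), chr8:105138511-105138747 (17 fragments, 4.73-fold) and chr8:105261613-105261928 (28 fragments, 4.35-fold).

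The neighbourhoods also differed in the genes they held. Runx1 had no coding neighbour with a start within 100 kb, Runx2 had Supt3, and Runx3 had Clic4, a chloride channel gene, with a TSS peak of 9.35-fold. Cbfb lay among 12 coding neighbours, of which 6 had a TSS peak. The highest were at D230025D16Rik and at E2f4, a cell cycle repressor (12.3-fold each), followed by B3gnt9 and 4931428F04Rik (8.87-fold each). Tradd, an adaptor of the tumour necrosis factor receptor, and Fbxl8 start next to each other and shared 2 peaks, of which the higher was 5.90-fold.

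AP-1, the dimer of FOS and JUN proteins, binds TGACTCA, which reads TGAGTCA on the other strand. Of the 65 peaks of the 4 loci that were more than 1 kb from any TSS, 19 held this consensus within 50 bp of the summit, which is 29.2% (95% exact binomial interval 18.6 to 41.8). Among all 47192 such peaks the share was 26.4%, inside that interval. By gene, the consensus was found at 11 of 25 peaks of Runx2, 4 of 25 of Runx1, 3 of 10 of Runx3 and 1 of 5 of Cbfb. The share at Runx2, 44.0%, had an interval of 24.4 to 65.1, and that at Runx1, 16.0%, an interval of 4.54 to 36.1. Both intervals contained the share of all distal peaks and they overlapped each other.

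Within Runx1, the 6 peaks between P1 and P2 held 0 AP-1 sequences at their summits and the 7 after P2 held 3. Within Runx2 the counts were 2 of 5 and 9 of 18. At the promoters, 1 of the 7 TSS peaks had the consensus, that of Runx2 P1, beside 8.15% of all TSS peaks. Peaks of the 4 loci with and without AP-1 had like heights, with median fold enrichments of 5.25 (n = 19) and 5.23 (n = 46). Over all distal peaks the medians were 6.31 with AP-1 and 5.30 without.

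A selection of the summits with AP-1 is printed here, with the strongest peak, the peak at P1 of Runx2, a pair of Runx2 summits with a repeated site, and 1 intronic summit each of Runx1 and Runx3. Each line gives the bases from 50 before to 50 after the summit, 5′ to 3′ on the strand of the gene (GRCm38/mm10), with the AP-1 consensus in capitals, and also the TEAD sequence CATTCC or its reverse complement where present.
Runx2 strongest peak, chr17:44500579-44500679, minus strand: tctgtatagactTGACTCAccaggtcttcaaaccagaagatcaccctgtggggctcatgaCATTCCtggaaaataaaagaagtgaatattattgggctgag
Runx2 P1 peak, chr17:44814976-44815076, minus strand: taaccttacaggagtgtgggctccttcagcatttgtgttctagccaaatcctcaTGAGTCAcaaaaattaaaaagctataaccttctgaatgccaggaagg
Runx2 repeated site between P1 and P2, chr17:44770981-44771081, minus strand: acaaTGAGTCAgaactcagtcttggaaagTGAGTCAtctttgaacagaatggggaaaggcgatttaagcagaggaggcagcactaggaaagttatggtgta
Runx2 repeated site near the 3′ end, chr17:44502322-44502422, minus strand: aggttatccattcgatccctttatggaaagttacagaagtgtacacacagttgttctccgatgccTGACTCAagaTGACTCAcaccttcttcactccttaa
Runx1 intron 5, chr16:92653952-92654052, minus strand: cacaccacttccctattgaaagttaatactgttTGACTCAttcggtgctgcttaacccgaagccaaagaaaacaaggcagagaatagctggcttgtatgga
Runx3 intron 5, chr4:135171425-135171525, plus strand: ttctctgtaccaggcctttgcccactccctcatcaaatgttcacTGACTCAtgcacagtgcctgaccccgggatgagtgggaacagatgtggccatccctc

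The strongest Runx2 summit held both an AP-1 and a TEAD sequence, with the AP-1 consensus centred 35 bp from the summit. At Runx2 P1 the consensus was centred 7 bp from the summit, and in intron 5 of Runx1 14 bp from it. A pair of Runx2 summits had the consensus repeated in the same orientation, at 6.19-fold and at 3.92-fold. The Runx3 consensus was centred 3 bp from the summit of a peak of only 12 fragments. A match shows that the letters are present, not that AP-1 was bound.

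The highest peaks of Runx1 and Cbfb and the next highest of Runx2 had no AP-1 consensus at their summits, and their windows are printed for comparison, with TEAD sequences in capitals.
Runx1 intron 7, chr16:92609441-92609541, minus strand: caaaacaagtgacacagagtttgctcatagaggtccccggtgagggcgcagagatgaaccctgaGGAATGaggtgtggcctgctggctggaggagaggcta
Runx2 beyond the coding transcript, chr17:44588091-44588191, minus strand: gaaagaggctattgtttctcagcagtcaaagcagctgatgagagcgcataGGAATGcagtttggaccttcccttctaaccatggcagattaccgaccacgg
Cbfb intron 3, chr8:105186635-105186735, plus strand: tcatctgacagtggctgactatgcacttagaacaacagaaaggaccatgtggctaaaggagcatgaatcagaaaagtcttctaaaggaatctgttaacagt

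The first of these windows, of Runx1, held GGAATG once, as did that of Runx2, whereas that of Cbfb held none of the sequences searched. TEAD proteins are the DNA-binding partners of YAP and TAZ. Their sequence was present at 8 of the 65 distal summits (12.3%, interval 5.47 to 22.8), beside 9.52% of all distal summits.

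The RUNX sequences TGTGGT and TGCGGT were searched on both strands to see how often the loci carry the family's own recognition sequence. They were present at 4 of 65 distal summits, 6.15% (1.70 to 15.0), beside 14.3% of all distal summits, inside that interval. All 4 were among the 25 distal peaks of Runx1, and the 25 of Runx2, 10 of Runx3 and 5 of Cbfb had 0. Whether the loci differed in this was not tested. The 4 peaks lay in the body of Runx1 at 86.84 kb after P1, downstream of the gene and, for 2 of them, upstream. The highest of these is given with the RUNX sequence in capitals.
Runx1 38.22 kb before P1, chr16:92864319-92864419, minus strand: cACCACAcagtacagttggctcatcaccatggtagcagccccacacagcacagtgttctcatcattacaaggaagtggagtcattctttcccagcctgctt

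None of the 7 TSS peaks of the members had a RUNX sequence at its summit, beside 9.36% of all TSS peaks. Among the 150-base stretches printed above, only that of Runx3 P1 contained it, at bases 10 and 18 of the stretch, both times as ACCACA, the reverse complement of TGTGGT. A RUNX sequence was present in the same window at 11.2% of all coding promoters. The C/EBP sequence TTGCNNAA was present at 2 of 65 distal summits (3.08%, beside 4.49%). The cAMP response element TGACGTCA, the ETS sequence CCGGAAGT and the full NFI palindrome, TTGGC and GCCAA separated by 5 bases, were at 0 of 65, beside 0.206%, 0.29% and 0.0148%.

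**Figure D5:**
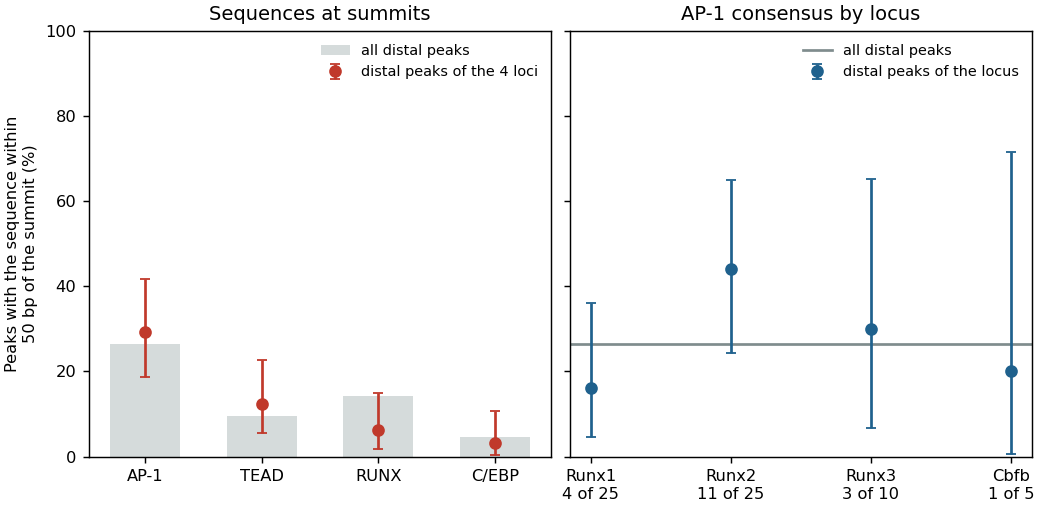
Share of distal peaks, those over 1 kb from every TSS, that held each sequence within 50 bp of the summit. In the left panel, grey bars are all 47192 such peaks and red points the 65 peaks of the 4 loci, and in the right panel blue points are the AP-1 shares by locus and the line is the share of all such peaks, 26.4%, with 95% exact binomial intervals as bars. The intervals of the AP-1 share contained 26.4% at all 4 loci.

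Other genes of the RUNX pathway were counted by role, beside the 53.7% of coding genes with a TSS peak and the 77.8% of CpG-rich promoters with one. Among corepressors 11 of 13 (84.6%) had one, with a median fold enrichment of 10.6 and a maximum of 17.1 at Tle1, a Groucho protein that binds the carboxy terminus of RUNX proteins. Runx1t1, known as the fusion partner of RUNX1 in leukaemia, had 10.6, and Tle2 and Cbfa2t3 had no TSS peak. Among coactivators and partners 11 of 13 (84.6%) had a TSS peak (median 9.85), with the highest, 12.9, at Smad1, a mediator of bone morphogenetic protein signals, and none at Dlx5 and Msx2, homeobox genes of developing bone. All 7 enzymes that act on RUNX proteins had one (median 10.3), and the lowest value was 5.04, at the cyclin-dependent kinase gene Cdk6.

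The lists of known RUNX targets were counted in the same way. Of the osteoblast genes bound by RUNX2, 3 of 9 had one, at Col1a1 (5.83-fold), Bglap2 (3.93-fold) and Spp1 (3.15-fold), and the osteoblast regulator Sp7 had none. Of the blood genes bound by RUNX1, 3 of 9 had one, at Itga2b (6.09-fold), Csf1r (5.68-fold) and Spi1 (3.22-fold). Of the T cell genes bound by RUNX3, 2 of 6 had one, at Zbtb7b (6.70-fold) and Cd4 (2.77-fold). All 8 of these peaks were below 8.03, the median of TSS peaks. Across all protein-coding genes the share with a TSS peak was 53.7%, and the base composition of the lists was not matched to it.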

How the data were processed

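ATAC-seq of 1 parental NIH-3T3 library was analysed, as a list of peaks. The submitters' processing notes name STAR 2.5.3a, Picard, SAMtools, deepTools and MACS2 2.1.1.20160309, and the build mm10. Per the methods, the authors kept uniquely mapped reads, removed duplicates and called peaks on this single sample. The calling is described as for ChIP-seq, where reads off the autosomes, X and Y were removed. Peaks that overlapped those of input chromatin or the ENCODE blacklist were also discarded there. Whether the list used here was filtered in this way is not stated. The deposited fold enrichment is a ratio, fragments over the summit plus 1 divided by the local expectation plus 1. Of the other deposited columns, −log10 p and −log10 q belong to the Poisson test that MACS2 makes within the library, and the score follows from −log10 q. No deposited p-value compares samples. All peaks had a −log10 q of at least 1.3. The peak list does not hold the number of reads of this library, for which the methods give only a range over all samples.

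Summit pileups were recovered by bisection on the fold and −log10 p of each peak, and 99.997% came out within 0.02 of a whole number. The median pileup was 29 fragments. The solver was tested on simulated data. No offset for the Tn5 insertion was applied to the summits.

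GENCODE M21 gave starts and genes, and sequence came from the GRCm38 reference of RefSeq, whose chromosomes hold all peaks. Coding starts within 2 kb of each other were merged to 1 promoter, and P1 and P2 were named by their order along the gene. The first residues of the encoded proteins were then compared with this order. Residues of the distal form were found only at P1 and those of the proximal form only at P2, though not in every transcript. SciPy 1.17.1, pysam 0.24.0, matplotlib 3.10.9, pandas 2.3.3 and NumPy 2.4.6 were used under Python 3.11.15.

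The members and gene lists were chosen with earlier results of these data known. Named were the members, their peaks, the 3 highest peaks outside each gene, neighbours with a TSS peak, and, for each list, genes with the highest value or none, and others beside them. Alternatives changed the q or fold limit, the TSS distance, the flank and the motif window. The other 30 samples were not analysed here. No protein sequences were used. The highest value of 1 gene list and 1 promoter sequence are not reported here.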

Additional observations from a re-analysis of the deposited data

How the results depend on the processing

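With 1 library, no replicate could be left out. No paired analysis was possible because a single ATAC-seq library entered. Of 45 alternative values, 36 stayed within the limits set for them (1.5 times for counts) and 0 changed direction. A fold enrichment of at least 5 left 2 RUNX promoters with a peak, since both P1 peaks are lower, and 3 peaks at member starts, 22 in gene bodies and 47 within 100 kb. A TSS distance of 5 kb gave 13 peaks at member starts and all 4 members with one, Runx3 included, and a flank of 200 kb gave 125 peaks. Both follow from the wider region searched. The Runx3 peak in question was that of intron 3, 4608 bp from an annotated start other than P1 and P2. The number of RUNX promoters with a peak stayed at 4 with this distance. The AP-1 share was 18.5% within 25 bp of the summit (all distal peaks 13.5%), 49.2% within 100 bp (36.5%) and 52.3% in whole peaks (40.8%). At a q of 1e-05 or below, 68 peaks within 100 kb were kept and the body of Runx3 had 0. The weak peaks rest on few fragments, 12 at each Runx3 body peak, and a promoter without a peak may hold signal under the limit of the peak caller. The part that sequencing depth plays in this was not tested.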
